A study of Rattus norvegicus with 144 samples.

Results

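Glycolysis splits glucose into pyruvate and lactate in the cytosol, and the pentose phosphate pathway branches from it to make NADPH and ribose. Mature red blood cells have no mitochondria and live on glycolysis, while white blood cells use both pathways for energy, growth and the oxidative burst. The enzymes described here are 8 of glycolysis and 2 of the non-oxidative arm of the pentose phosphate pathway. The 10 genes were taken by name: Aldoa, Tpi1, Gapdh, Pgk1, Pgam1, Eno1, Pkm and Ldha for glycolysis, and Tkt and Taldo1 for the pentose phosphate pathway. The array carried a probe annotated to 9 of the 10, with 1 probe each, out of 9653 named genes in all. Gapdh had no annotated probe and is not measured. All 9 measured genes had a value in each of the 72 animals, so none was lost to the filter on missing values.

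Male F344/N rats aged 10-12 weeks received acetaminophen by gavage in a pair of doses, at 0 (vehicle alone), 150, 1500 or 2000 mg/kg in all, and the vehicle, which all groups received, was 0.5% ethyl cellulose. Acetaminophen is an analgesic that damages the liver in overdose. The rats were killed after 3, 6 or 24 h, and each of the 12 combinations of dose and time held 6 of them. Blood RNA of a rat went on a dye-swapped pair of two-colour arrays beside a pool made from the 6 vehicle rats of that time point, so a value is the log2 ratio of 1 animal to that pool. The pool is itself vehicle RNA, and all doses of a time were compared with the same 6 individual vehicle animals. No source used here states the scale and direction of the deposited ratios: log10 of Cy5 over Cy3 is likely and not certain, and every "higher", "lower" and size rests on it. A ratio shows no absolute level, so genes are not ranked by abundance and the tissue was not checked by marker levels. The blood was not sorted, and fewer cells of a type and less RNA per cell cannot be told apart.

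By the RefSeq annotation of the rat genome build GRCr8, Pgk1 lies at chrX:75336988-75352962, Tkt at chr16:5729381-5755170, Aldoa at chr1:190832820-190838021 and Pgam1 at chr1:250673152-250680762. The other measured genes lie at chr4:159301558-159305088 (Tpi1), chr5:166002867-166014252 (Eno1), chr8:68949731-68975394 (Pkm), chr1:106508092-106517512 (Ldha) and chr1:205923196-205933526 (Taldo1). Each probe is assigned to a gene as a whole, and whether it lies in a coding exon or a UTR is not known here.

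Promoters, 250 bases before and 50 bases after a transcript start in the RefSeq table of GRCr8, were listed for 9 of the 10 genes, Pgk1 not among them. They were searched on both strands for ACGTG and GCGTG, which hypoxia-inducible factors bind, for TGACNNNGC, the antioxidant response element, and for GGGCGG, the GC box. Tkt and Aldoa are shown because they fell at both 3 and 6 h after the highest dose, and Ldha because it is a textbook target of hypoxia-inducible factor that passed no test here. The windows lie at chr16:5729982-5730281 on the plus strand (Tkt), at chr1:190837972-190838271 and chr1:190836728-190837027 on the minus strand (Aldoa, starts 1 and 3 of 3) and at chr1:106507842-106508141 on the plus strand (Ldha). Capitals mark the motifs found, in the letters of the strand shown.
Tkt: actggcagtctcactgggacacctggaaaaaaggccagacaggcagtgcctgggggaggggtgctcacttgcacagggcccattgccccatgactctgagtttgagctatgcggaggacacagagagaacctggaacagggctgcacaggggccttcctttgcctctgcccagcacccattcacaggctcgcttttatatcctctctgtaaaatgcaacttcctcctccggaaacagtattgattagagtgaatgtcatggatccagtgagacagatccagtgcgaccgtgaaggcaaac
Aldoa start 1: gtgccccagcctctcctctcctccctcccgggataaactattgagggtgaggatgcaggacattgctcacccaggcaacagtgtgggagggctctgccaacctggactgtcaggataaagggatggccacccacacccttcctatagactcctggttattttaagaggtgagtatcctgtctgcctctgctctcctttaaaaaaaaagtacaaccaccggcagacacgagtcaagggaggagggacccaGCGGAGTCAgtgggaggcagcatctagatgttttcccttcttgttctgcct
Aldoa start 3: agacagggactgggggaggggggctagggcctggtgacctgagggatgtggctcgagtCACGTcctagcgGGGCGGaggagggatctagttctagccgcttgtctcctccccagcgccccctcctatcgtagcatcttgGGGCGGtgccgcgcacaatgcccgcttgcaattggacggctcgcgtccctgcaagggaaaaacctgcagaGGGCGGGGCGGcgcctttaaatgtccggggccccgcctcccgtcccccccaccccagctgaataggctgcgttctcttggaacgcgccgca
Ldha: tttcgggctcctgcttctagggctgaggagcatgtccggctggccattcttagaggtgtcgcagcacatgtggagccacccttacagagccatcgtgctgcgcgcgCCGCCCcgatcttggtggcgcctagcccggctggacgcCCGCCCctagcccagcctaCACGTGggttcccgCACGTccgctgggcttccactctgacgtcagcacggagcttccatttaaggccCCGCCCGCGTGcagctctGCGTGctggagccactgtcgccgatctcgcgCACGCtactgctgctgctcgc

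The Tkt window held none of the 4 motifs. That window, the only one listed for Tkt, lies inside the gene, whose span begins at chr16:5729381. The bases before that point were not searched. The Aldoa windows held 1 TGACNNNGC at start 1, 1 at start 2 (chr1:190837599-190837898, not shown), and 1 ACGTG and 4 GGGCGG, of which 2 overlap, at start 3. The Ldha window held 3 ACGTG, of which 2 are the same site read on opposite strands, with 3 GCGTG and 3 GGGCGG. Of the 33469 promoters in the table, 19.3% held ACGTG, 29.7% GCGTG, 12.1% TGACNNNGC and 33.1% GGGCGG. These matches describe letters in a window and carry no measurement of binding.

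At 3 h after 2000 mg/kg, 4 of the 9 enzymes had fallen in blood and none had risen. Pgk1, which makes the first ATP of glycolysis, and Tkt, which moves carbon units between sugar phosphates in the pentose phosphate pathway, each fell almost to the same extent, 1.90-fold and 1.92-fold. Aldoa, the aldolase that cleaves fructose bisphosphate, fell 1.27-fold, and Pgam1, the mutase that follows phosphoglycerate kinase, fell 1.22-fold. The test was limma on all 14678 features in 1 fit of 12 groups, with Benjamini-Hochberg adjusted p under 0.05 taken as passing. Over all features, 9.23% passed in this comparison, 8.32% as lower and 0.913% as higher. The median difference of the 9 enzymes was -0.28 on the log2 scale, beside 0.03 over all features.

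Tkt had log2 ratios with a lowest value of -1.46, a median of -1.21 and a highest value of -0.51 in the 6 animals given 2000 mg/kg, against -0.45, -0.30 and 0.26 in the vehicle animals. Every treated animal was below the lowest vehicle animal. The share of all features whose groups separate in this way was not counted, here or in the comparisons below. The difference was -0.94 (SE 0.18, n = 6 each, limma adjusted p = 0.000287), and 2.40% of all features had a lower one. Pgk1 ran at -1.59, -1.02 and -0.66 in the animals given 2000 mg/kg, against -0.38, -0.21 and 0.31 in the vehicle animals. Here too the groups did not overlap, and the vehicle animal at 0.31 stood apart from the other 5, which were at or below -0.16. The difference for Pgk1 was -0.92 (SE 0.17, n = 6 each, limma adjusted p = 0.000145).

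Aldoa and Pgam1 moved less but also varied less between animals. Aldoa lay at -0.44, -0.38 and -0.24 (lowest, median, highest) in animals given 2000 mg/kg, against -0.11, -0.03 and 0.11 in vehicle animals, with no overlap. Its difference was -0.34 (SE 0.10, n = 6 each, limma adjusted p = 0.0169), and without the vehicle rat at the top for Pgk1, numbered 6370, it was -0.32 and did not pass (limma adjusted p = 0.0584). Pgam1 lay at -0.45, -0.37 and -0.10 after 2000 mg/kg and at -0.17, -0.06 and 0.06 in vehicle animals, so that 5 of the 6 treated animals were below the lowest vehicle animal. Its difference was -0.28 (SE 0.08, n = 6 each, limma adjusted p = 0.0127). The SD between animals of a group was 0.30 for Pgk1, 0.32 for Tkt, 0.17 for Aldoa and 0.14 for Pgam1, and the error of an animal's value from its 2 arrays had SDs of 0.07, 0.08, 0.05 and 0.04. For these genes the spread came mostly from differences between rats rather than between arrays of a rat.

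**Figure D1:**
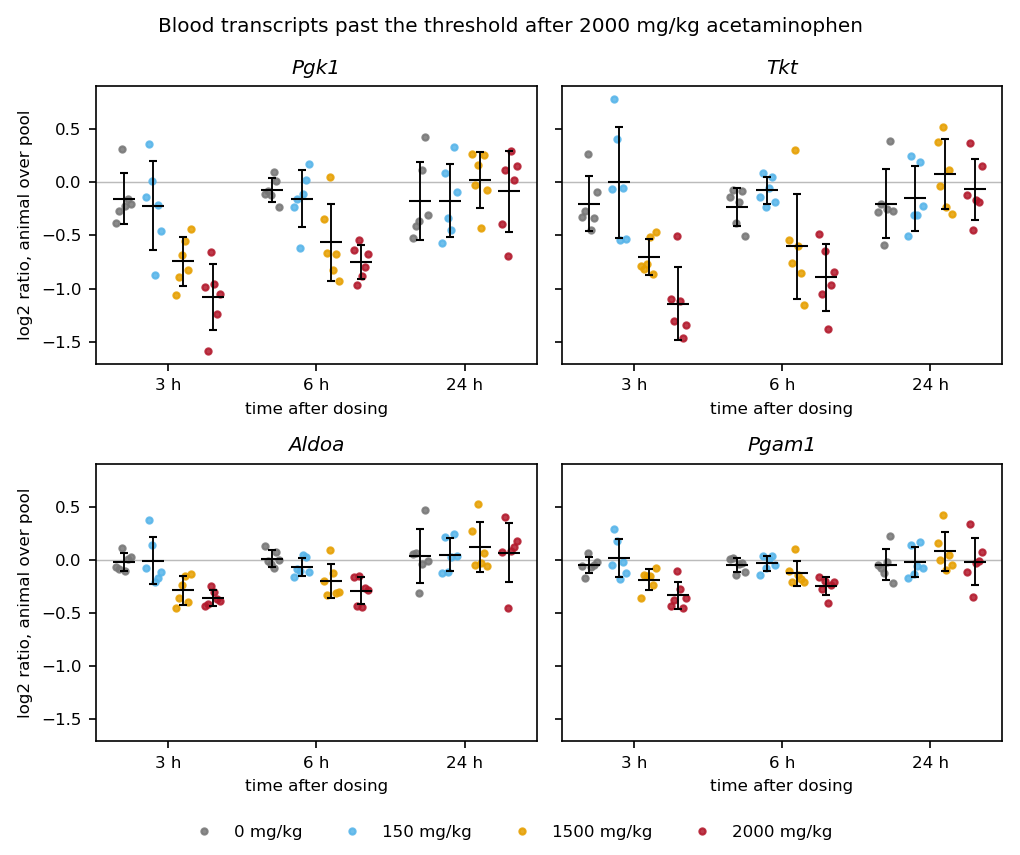
Log2 ratio of each animal to the vehicle pool (vertical axis) for Pgk1, Tkt, Aldoa and Pgam1 by time and dose, with doses from left to right at each time; points are animals, and bars are the mean ± SD of 6 animals. At 3 h the animals given 2000 mg/kg lay between -1.59 and -0.66 for Pgk1 and between -1.46 and -0.51 for Tkt, below every vehicle animal, and at 24 h the groups overlapped.

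At 6 h after 2000 mg/kg, 3 of the 9 enzymes had fallen, the same Pgk1, Tkt and Aldoa, and none had risen, where 9.22% of all features passed, 8.26% as lower and 0.961% as higher. The median over the enzymes was -0.20, beside 0.02 over all features. Pgk1 lay at -0.97, -0.73 and -0.54 in animals given 2000 mg/kg, against -0.23, -0.09 and 0.10 in vehicle animals, with no overlap. The difference was -0.68 (SE 0.17, n = 6 each, limma adjusted p = 0.00657), a 1.60-fold fall. For Tkt the values were -1.38, -0.90 and -0.49 after 2000 mg/kg and -0.51, -0.16 and -0.08 in vehicle animals. In Tkt 5 of 6 treated animals were below the lowest vehicle animal, and the difference was -0.66 (SE 0.18, n = 6 each, limma adjusted p = 0.0126), a 1.58-fold fall.

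Aldoa at 6 h lay at -0.45, -0.27 and -0.15 in animals given 2000 mg/kg and at -0.08, -0.01 and 0.13 in vehicle animals, again without overlap. The difference of -0.30 (SE 0.10, n = 6 each, limma adjusted p = 0.0408) was close to the threshold, and it missed it in 13 of 25 alternative settings, with adjusted p between 0.0501 and 0.114. Pgam1 lay at -0.40, -0.22 and -0.16 after 2000 mg/kg, against -0.15, -0.03 and 0.02 in vehicle animals. All 6 treated animals were below the lowest vehicle animal, yet its difference of -0.20 (SE 0.08, n = 6 each) did not pass (limma adjusted p = 0.11). Without the rat numbered 8597, whose Tkt ratio was -1.38 and whose Pkm ratio was -1.30, only Pgk1 passed at 6 h, with Tkt at an adjusted p of 0.0597 and Aldoa at 0.114.

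The other 5 measured enzymes passed no comparison with vehicle at any dose or time in the fit of all 12 groups. Tpi1, which interconverts the 2 triose phosphates, came nearest at 3 h after 2000 mg/kg, with -0.58, -0.55 and -0.22 in treated animals and -0.34, -0.13 and 0.13 in vehicle animals. Of the treated animals 5 of 6 were below the lowest vehicle animal, and the difference was -0.36 (SE 0.15, n = 6 each, limma adjusted p = 0.148). Tpi1 did pass there with animal weights and with the compared animals alone in the fit, which made the count 5 of 9, and against the pool. At 6 h the Tpi1 difference was 0.03, with animals of both groups spread over the same range. The error of an animal's value from its arrays was large for Tpi1 (SD 0.21) and Pkm (SD 0.20), close to the SD between animals of a group, 0.27 and 0.28.

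Eno1, the enolase of most tissues, was the steadiest of the 9, with an SD between animals of 0.11. Its ratios at 3 h ran from -0.10 to 0.29 after 2000 mg/kg and from -0.02 to 0.21 in vehicle animals, and the difference was -0.03 with a 95% interval from -0.16 to 0.10. At 6 h it was 0.06, with an interval from -0.07 to 0.18. The intervals for Eno1 do not reach the size of the falls of Pgk1 and Tkt.

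Ldha, which reduces pyruvate to lactate, and Taldo1, the transaldolase that works beside transketolase, varied widely in every group. At 3 h Ldha lay at -0.72, -0.49 and 0.03 in animals given 2000 mg/kg, against -0.91, -0.32 and 0.18 in vehicle animals, so the groups overlapped throughout. Its difference was -0.15, with a 95% interval from -0.54 to 0.25. Taldo1 lay at -0.77, -0.51 and -0.26 after 2000 mg/kg and at -1.01, -0.31 and 0.08 in vehicle animals, with a difference of -0.15 and an interval from -0.59 to 0.29. These intervals are wide and take in a fall as large as that of Aldoa, which was not detectable in either gene. Pkm, the pyruvate kinase of muscle and blood leukocytes, differed by -0.09 at 3 h and -0.21 at 6 h, and a single rat at -1.30 (the one numbered 8597) carried much of the second value, since the median after 2000 mg/kg at 6 h was -0.20 and that of the vehicle animals -0.22.

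**Figure D2:**
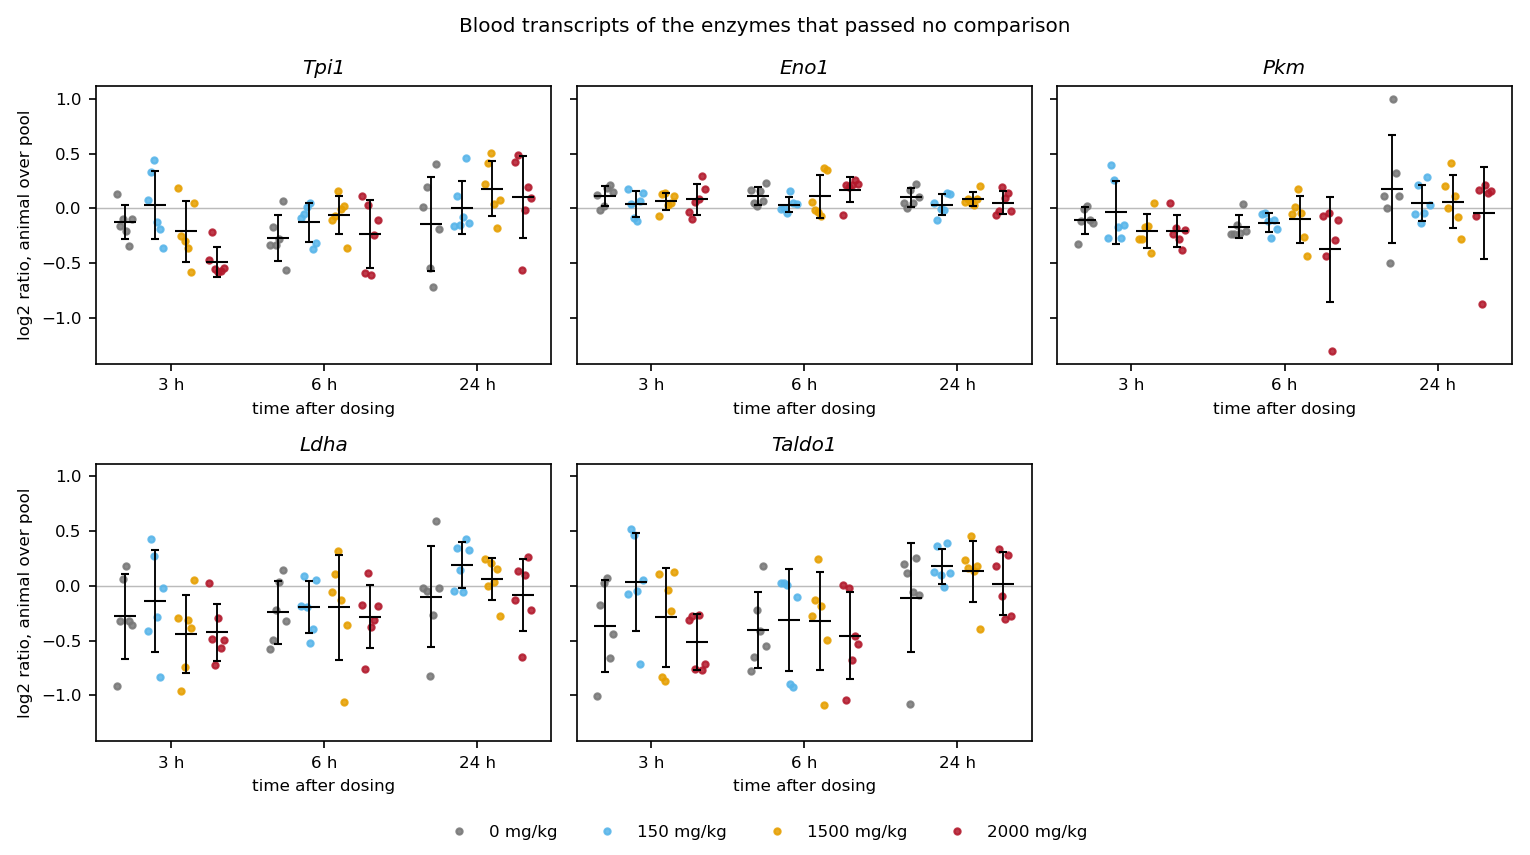
Log2 ratio of each animal to the vehicle pool (vertical axis) for Tpi1, Eno1, Pkm, Ldha and Taldo1 by time and dose, with doses from left to right; points are animals, and bars are the mean ± SD of 6 animals. The groups overlap for each gene, apart from 5 of 6 Tpi1 values at 3 h after 2000 mg/kg, and the lowest Pkm value at 6 h is the rat at -1.30.

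At 150 mg/kg no enzyme passed at 3, 6 or 24 h, where 0% of all features passed (unadjusted p under 0.05: 0 of 9 enzymes at each time). Differences ran from -0.07 to 0.40 at 3 h, from -0.08 to 0.15 at 6 h and from -0.13 to 0.29 at 24 h. The 95% interval for Pgk1 at 3 h was from -0.41 to 0.28 and that for Tkt from -0.17 to 0.57, neither of which reaches the fall after 2000 mg/kg.

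At 1500 mg/kg no enzyme passed with limma, at 3 h (1.29% of features passed, 1.24% lower), at 6 h (0.749%) or at 24 h (1.21%), while 3, 3 and 1 of the 9 had an unadjusted p under 0.05. At 3 h the median of the enzymes was -0.14, beside 0.01 over all features. Pgk1 lay at -1.06, -0.76 and -0.44 in animals given 1500 mg/kg, against -0.38, -0.21 and 0.31 in the vehicle animals. Tkt lay at -0.86, -0.78 and -0.47 against -0.45, -0.30 and 0.26, and Aldoa at -0.45, -0.29 and -0.13 against -0.11, -0.03 and 0.11. The differences by limma were -0.59 (SE 0.17, adjusted p = 0.0601) for Pgk1, -0.50 (SE 0.18, adjusted p = 0.156) for Tkt and -0.27 (SE 0.10, adjusted p = 0.161) for Aldoa. For these 3 genes every animal given 1500 mg/kg was below the lowest vehicle animal. How many of all features separated likewise was not counted, so this shows no fall beyond the test. Without the rat numbered 8030 the count at 3 h was 1, Pgk1.

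At 6 h after 1500 mg/kg the count changed with a single rat left out, and so did the count over all features. The rat numbered 0621 had log2 ratios of 0.05 for Pgk1, 0.30 for Tkt, 0.09 for Aldoa and 0.10 for Pgam1, while the group medians were -0.67, -0.68, -0.25 and -0.16. The same rat was at 0.16 in the mean of the T cell markers, 0.29 in that of the B cell markers and 0.10 in that of the monocyte markers, the highest of its group in each. With it the differences were -0.49 for Pgk1 (limma adjusted p = 0.132) and -0.37 for Tkt (limma adjusted p = 0.342), and without it 2 enzymes, Pgk1 and Tkt, passed, while the features past the threshold numbered 993 of 14678, beside 110 with it. The count also changed with the rat kept, to 2 with animal weights, 1 with a random block and 3 against the pool.

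Between 2000 and 1500 mg/kg no enzyme passed at any time, and 0% of features did. With limma, 1 of the 9 had an unadjusted p under 0.05 at 3 h and none at 6 or 24 h. At 3 h the 95% interval of the difference was from -0.80 to -0.07 for Tkt (unadjusted p = 0.0205 in the limma fit, not past the threshold after adjustment) and from -0.68 to 0.01 for Pgk1. At 6 h it was from -0.66 to 0.07 for Tkt and from -0.53 to 0.16 for Pgk1. A lower ratio at the higher dose was not shown, and the intervals allow one.

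**Figure D3:**
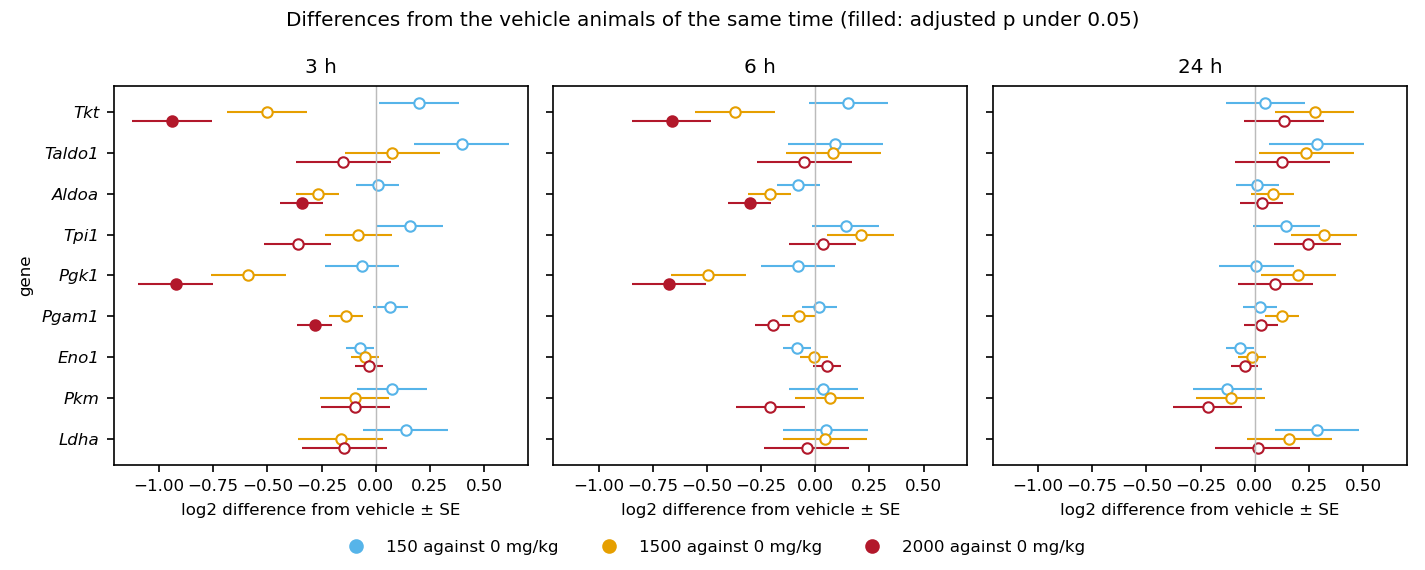
Log2 difference from the 6 vehicle rats of that time (horizontal axis) with its SE, for each of the 9 measured enzymes at 3, 6 and 24 h, at 150, 1500 and 2000 mg/kg from top to bottom; filled points passed limma's test at an adjusted p under 0.05. Filled points are Tkt, Aldoa, Pgk1 and Pgam1 at 3 h and Tkt, Aldoa and Pgk1 at 6 h, all at 2000 mg/kg.

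By 24 h no enzyme differed from vehicle beyond the threshold, with 0 of 9 past it at 2000 mg/kg (0.818% of features passed; 0 of 9 had an unadjusted p under 0.05) and 0 of 9 at 1500 mg/kg. Pgk1 lay at -0.70, 0.07 and 0.30 in animals given 2000 mg/kg, against -0.53, -0.34 and 0.42 in vehicle animals, and Tkt at -0.45, -0.14 and 0.37 against -0.59, -0.26 and 0.39. The groups overlapped throughout, with differences of 0.09 (95% interval from -0.25 to 0.44) for Pgk1 and 0.14 (95% interval from -0.23 to 0.50) for Tkt. Vehicle animals were more spread at this time, with an SD of 0.37 for Pgk1 and 0.49 for Pkm, against 0.11 for both genes at 6 h. Tpi1 after 1500 mg/kg had the largest difference of the 9 in size at 24 h, 0.32 (SE 0.15, n = 6 each, limma adjusted p = 0.517).

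Whether the 2000 mg/kg difference itself changed with time was tested in the same fit. From the 3 h to the 24 h animals the difference for Tkt changed by 1.07 (SE 0.26, limma adjusted p = 0.00895) and that for Pgk1 by 1.02 (SE 0.24, limma adjusted p = 0.00806), where 2.73% of features passed and 2.34% did so upward. No other enzyme passed in this comparison, Tpi1 standing at 0.60 (adjusted p = 0.125), Aldoa at 0.37 (adjusted p = 0.148) and Pgam1 at 0.31 (adjusted p = 0.123). Against 6 h the changes at 24 h were 0.80 for Tkt (limma adjusted p = 0.0659) and 0.77 for Pgk1 (limma adjusted p = 0.0558), with 3.67% of features past the threshold and 0 of the 9 enzymes. Between 6 and 3 h no enzyme passed, and 0.00681% of features did. These are different animals at each time, so the comparison is between groups and not within a rat.

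All measured enzymes but Eno1 moved together from rat to rat, with correlations from 0.25 to 0.89. The mean of each group was taken off first, though rats of a dosed group may still differ in their response. The correlation over 72 animals was 0.89 between Aldoa and Pgam1, 0.86 between Tkt and Pgam1, 0.83 between Tkt and Aldoa and 0.79 between Tkt and Pgk1. Ldha and Taldo1 stood at 0.86. Between these and the enzymes that fell, the values were lower but positive: Ldha correlated at 0.56 with Aldoa and 0.50 with Tkt, and Taldo1 at 0.45 with Tkt, 0.42 with Aldoa, 0.28 with Pgam1 and 0.25 with Pgk1. Pkm stood at 0.65 with Aldoa and 0.61 with Tkt, and Tpi1 at 0.64 and 0.59. Eno1 was negative or near 0 with all the others, from -0.50 with Taldo1 to 0.01 with Pgk1. All values of a rat come from the same 2 arrays and the same pool, which the genes share, so these correlations are descriptions.

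**Figure D4:**
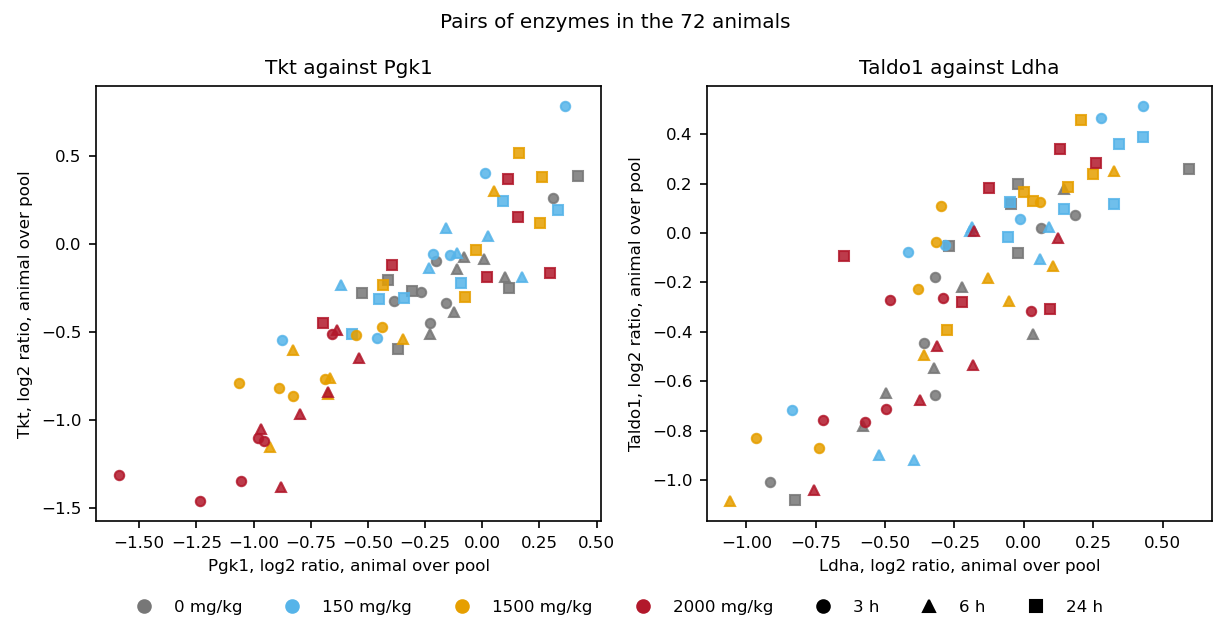
Tkt against Pgk1 (left) and Taldo1 against Ldha (right), each point 1 of 72 animals as log2 ratio to the vehicle pool, with colour for dose and shape for time. In the left panel the animals given 2000 mg/kg at 3 and 6 h lie at the lower left, with Pgk1 at or below -0.54. Rats of other groups lie there too. The lowest Pgk1 values were -1.06 and -0.93 at 3 and 6 h after 1500 mg/kg, -0.87 at 3 h after 150 mg/kg and -0.70 at 24 h after 2000 mg/kg. In the right panel the doses are mixed along the line of points.

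Among all other named genes, those most like the fallen enzymes over the 72 animals, with the vehicle mean of each time taken off, were listed by Pearson's r. For Tkt they were Lsp1 (r = 0.964), a leukocyte actin-binding protein, and Arpc5 (0.956) and Arpc1b (0.950), subunits of the actin-nucleating Arp2/3 complex. For Pgk1 they were Rab7a (0.963), a late endosome GTPase, P4hb (0.940), protein disulfide isomerase, and Cr1l (0.936), a rodent complement regulator. For Aldoa they were Igsf6 (0.919), Fuca1 (0.912), a lysosomal fucosidase, and Was (0.896), the Wiskott-Aldrich syndrome protein of blood cells. For Pgam1 they were Lsp1 (0.918), Rpn1 (0.916), a subunit of the oligosaccharyltransferase, and Fuca1 (0.903). None of these 10 genes is an enzyme of either pathway. The differences between doses remain in these values. With the mean of each group taken off instead, r for the same pairs ran from 0.83 (Fuca1 with Pgam1) to 0.92 (Rab7a with Pgk1).

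Of 82 other genes of glucose metabolism, listed by function, 62 were measured and tested. At 3 h after 2000 mg/kg 7 of them fell and 1 rose, and at 6 h 5 fell and 1 rose, close to the shares over all features (8.32% lower and 0.913% higher at 3 h, 8.26% and 0.961% at 6 h). Their median difference was 0.01 at 3 h and 0.00 at 6 h. The other glycolysis genes, among them hexokinases and phosphofructokinases, had 1 of 14 lower at each of these times, which is near the share over all features, and list medians of 0.05 and 0.02. That gene was Ldhb, the heart-type lactate dehydrogenase subunit, with -1.54, -1.16 and -0.83 at 3 h in animals given 2000 mg/kg, against -0.52, -0.35 and 0.24 in vehicle animals. The groups did not overlap, and the difference was -0.92 (SE 0.24, limma adjusted p = 0.00755), made of -1.38 and -0.46 for its 2 probes. At 6 h Ldhb differed by -0.86 (SE 0.24, limma adjusted p = 0.0143).

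In the pentose phosphate list 1 of only 4 tested genes fell at both times. Over all features 8.32% were lower at 3 h and 8.26% at 6 h. The gene was Prps2, which makes phosphoribosyl pyrophosphate. It fell by 0.61 at 3 h (limma adjusted p = 0.00473) and by 0.46 at 6 h (limma adjusted p = 0.0496) on the log2 scale. Its 2 probes differed in size, -1.08 and -0.15 at 3 h. Of 8 genes of pyruvate oxidation, 1 fell at both times, beside the same shares of all features. Another 1 rose at 3 h, where 0.913% of all features were higher. Mpc1, a subunit of the mitochondrial pyruvate carrier, fell by 0.74 at 3 h (limma adjusted p = 0.00476) and by 0.70 at 6 h (limma adjusted p = 0.00935). Dlat, a subunit of pyruvate dehydrogenase, rose by 0.32 at 3 h (limma adjusted p = 0.0304). None of the 6 tested transporters passed at these times, with differences from -0.09 to 0.19 at 3 h and from -0.06 to 0.27 at 6 h.

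Of 15 regulators tested, Nfe2l2 and Mlx fell at 3 h after 2000 mg/kg, beside 8.32% of all features, and the list median was 0.00. Nfe2l2 encodes NRF2, which drives antioxidant genes and in other settings the pentose phosphate enzymes, and Mlx is the partner of the glucose-sensing factor ChREBP. Nfe2l2 lay at -1.94, -1.17 and -0.70 in treated animals and at -0.72, -0.21 and 0.53 in vehicle animals, a difference of -1.08 (SE 0.21, limma adjusted p = 0.00031), with its 2 probes at -0.96 and -1.20. Its groups met at their ends, and the difference was -0.22 at 6 h (adjusted p = 0.564) and 0.54 at 24 h (adjusted p = 0.303). The change from 3 to 24 h was 1.62 (SE 0.30, limma adjusted p = 0.000344), where 2.34% of all features passed upward. Of the 15 regulators 2 passed upward in that comparison, Nfe2l2 among them. A link between Nfe2l2 and the enzymes was not tested. Mlx fell by 0.84 at 3 h (limma adjusted p = 1.18e-05) and by 0.47 at 6 h (limma adjusted p = 0.0141) after 2000 mg/kg, and by 0.54 at 3 h after 1500 mg/kg (limma adjusted p = 0.0265). Pdk4, the kinase that switches pyruvate dehydrogenase off, rose by 0.30 at 6 h after 2000 mg/kg (limma adjusted p = 0.0155). Hif1a, the oxygen-regulated subunit of hypoxia-inducible factor, differed by -0.04 to 0.04 from vehicle in all 9 dose comparisons.

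Among 15 genes of gluconeogenesis and glycogen, 2 fell at 3 h after 2000 mg/kg, where 8.32% of all features were lower. The list median was 0.03. They were Pygl, the liver-type glycogen phosphorylase that leukocytes also use, and Ugp2, which makes UDP-glucose. Pygl fell by 0.62 (SE 0.20, limma adjusted p = 0.0319) and Ugp2 by 0.48 (SE 0.14, limma adjusted p = 0.0161), but the 2 probes of Ugp2 stood at -0.96 and 0.31 and so disagree. Ugp2 also fell at 6 h, by 0.57 (limma adjusted p = 0.00499), where 8.26% of all features were lower. At 24 h after 1500 mg/kg Pygl was higher, at -0.19, 0.82 and 1.52 in treated animals against -0.42, -0.00 and 0.44 in vehicle animals, with a difference of 0.77 (SE 0.20, limma adjusted p = 0.0244). Slc16a3, the lactate exporter MCT4, was higher by 0.35 at that dose and time (SE 0.09, limma adjusted p = 0.0377). These were 1 of 15 genes of gluconeogenesis and glycogen and 1 of 6 transporters, where 1.21% of all features passed in either direction.

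Marker genes of white blood cells moved at the same doses and times. At 3 h after 2000 mg/kg 6 of 11 tested T cell markers, 4 of 5 B cell markers, 6 of 10 monocyte markers, 2 of 9 neutrophil markers and 1 of 6 natural killer markers fell, while 0 of 10 erythroid markers passed and 1 of 5 platelet markers rose, where 8.32% of all features were lower and 0.913% higher. The median difference was -0.79 for the T cell, -1.29 for the B cell and -0.56 for the monocyte list, but -0.11 for the natural killer and 0.01 for the neutrophil list. Falls in this group included Cd5 (-1.69) and Lck (-1.34) of T cells, Jchain (-1.99) of B cells and Fn1 (-1.92) and Lyz2 (-1.69) of monocytes, given as log2 differences. The mean over the T cell markers ran from -1.06 to -0.49 in animals given 2000 mg/kg and from -0.25 to 0.04 in vehicle animals, and that over the monocyte markers from -0.92 to -0.54 against -0.31 to 0.12. The mean over the erythroid markers ran from -0.02 to 0.13 after 2000 mg/kg and from -0.12 to 0.08 in vehicle animals. For the neutrophil markers the mean was lower than the list median tells, from -0.59 to -0.19 against -0.24 to 0.11. Its 2 markers that fell were Fcnb (-1.71) and Ncf4 (-1.07). The natural killer mean ran from -0.26 to -0.02 against -0.10 to 0.21. At 6 h 6 of 11 T cell, 4 of 5 B cell, 4 of 10 monocyte and 1 of 9 neutrophil markers fell, where 8.26% of all features were lower. The median difference was -0.83 for the T cell, -0.86 for the B cell and -0.37 for the monocyte list. It was -0.12 for the natural killer and 0.07 for the neutrophil list. The neutrophil mean ran from -0.28 to 0.14 after 2000 mg/kg and from -0.28 to 0.13 in vehicle animals.

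At 24 h the lymphocyte lists had no marker past the threshold, while 3 of 9 neutrophil markers at 1500 mg/kg, 2 of 9 at 2000 mg/kg and 2 of 10 monocyte markers at each dose passed as higher, where 1.21% and 0.818% of all features passed in either direction at these doses. The median difference was 0.21 at 1500 mg/kg and 0.01 at 2000 mg/kg for the neutrophil list, and -0.03 and -0.02 for the monocyte list. It was still negative for the T cell list (-0.47 and -0.35) and the B cell list (-0.35 and -0.39). After 2000 mg/kg the T cell mean ran from -0.99 to 0.30, against -0.34 to 0.22 in vehicle animals. The B cell mean ran from -1.47 to 0.28, against -0.38 to 0.41. S100a9, one of these neutrophil markers, was higher by 1.74 at 2000 mg/kg. The mean over the neutrophil markers ran from 0.16 to 1.15 in animals given 2000 mg/kg and from -0.33 to 0.36 in vehicle animals. Within groups, the correlation over 72 animals with the monocyte mean was 0.78 for Tkt, 0.77 for Aldoa, 0.74 for Pgam1 and 0.70 for Pgk1, and with the T cell mean 0.69, 0.73, 0.70 and 0.58. With the erythroid mean it was -0.05, -0.26, -0.16 and -0.25. With the monocyte mean the enzymes that did not fall stood at 0.68 (Ldha), 0.59 (Taldo1), 0.56 (Tpi1) and 0.53 (Pkm), so a positive value was not particular to those that fell. Eno1 stood at -0.22 with the monocyte mean and -0.27 with the T cell mean. The part of these cell types in the falls of the enzymes was not tested.

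**Figure D5:**
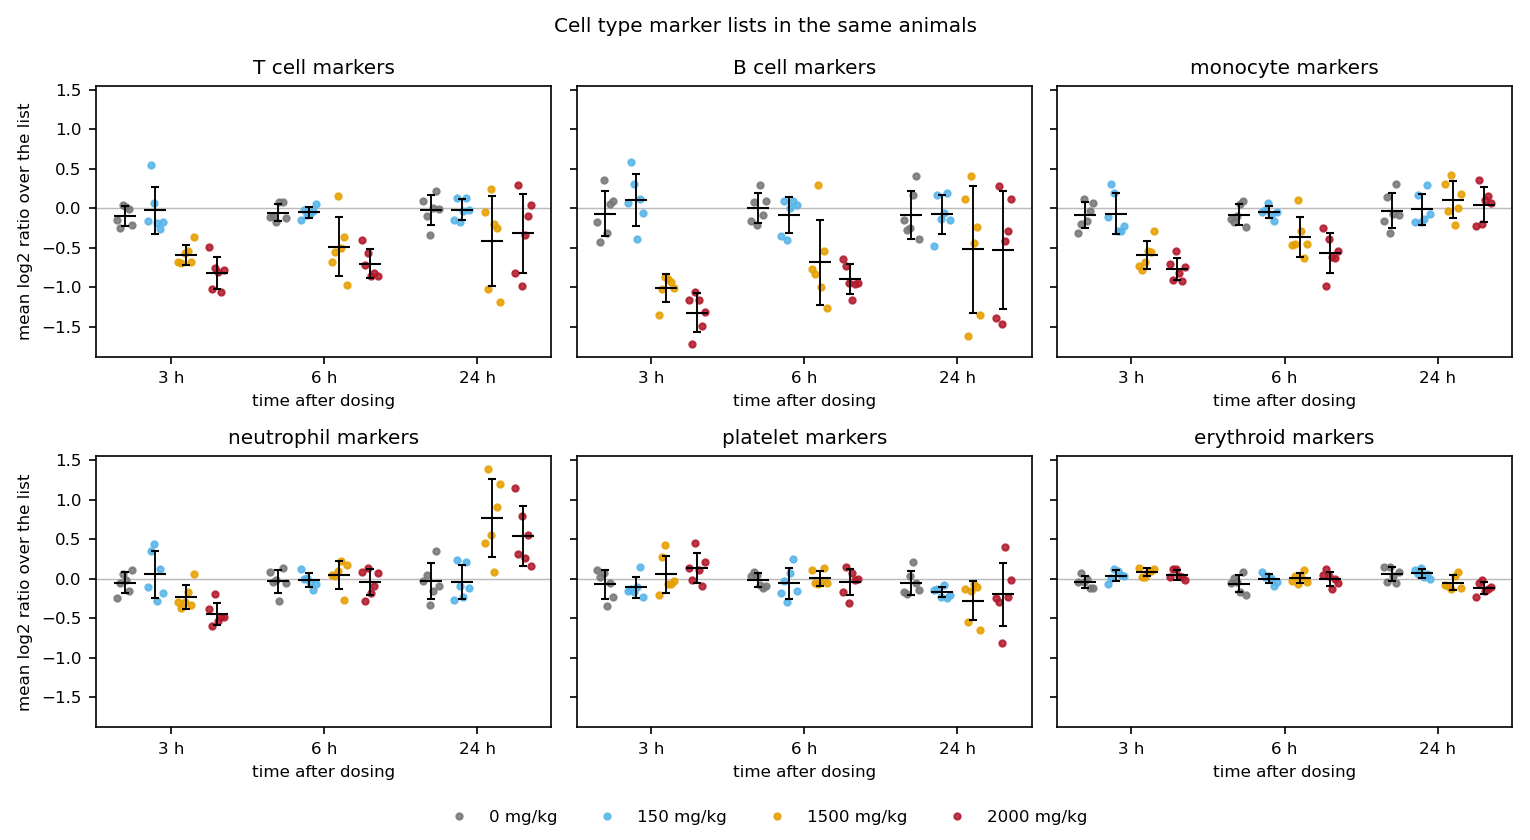
Mean log2 ratio to the vehicle pool over the tested markers of 6 cell types (vertical axis) by time and dose, with doses from left to right; points are animals, and bars are the mean ± SD of 6 animals. At 3 h after 2000 mg/kg the T cell mean lay between -1.06 and -0.49 and the erythroid mean between -0.02 and 0.13, and at 24 h the neutrophil mean lay between 0.16 and 1.15.

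The arrays came in a pair of designs, 1 of which lacks 500 features on 91 of the 144 arrays, and the designs were unevenly spread over the groups. At 3 h both designs held animals given 2000 mg/kg and vehicle animals. Among rats with both hybridisations on the design with more features (4 treated and 2 vehicle animals) the difference was -0.80 for Pgk1, -0.65 for Tkt, -0.25 for Aldoa and -0.18 for Pgam1, and among rats with both on the other (2 and 2 animals) it was -0.96, -1.19, -0.40 and -0.37. Within the first design alone 0 of the 9 enzymes passed, with limma adjusted p between 0.383 and 0.76 for these 4, but 0 of all 15597 features tested there passed either. At 6 h 5 animals given 2000 mg/kg and 5 vehicle animals had both arrays lacking the features, and the difference there was -0.71 for Pgk1, -0.73 for Tkt, -0.30 for Aldoa and -0.20 for Pgam1. With array design as a covariate the counts of enzymes past the threshold at 2000 mg/kg were 4 at 3 h and 3 at 6 h.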

How the data were processed

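Blood RNA of 72 rats was measured on 144 two-colour arrays. The deposited value table holds 1 ratio per feature and array, read here as log10 of Cy5 over Cy3 and taken as already normalised. No source used here gives its scale, centring, direction or methods. Dose came from a deposited key, in whose animal numbers 19 had lost zeros at an end and were matched on the remaining digits; 72 of 72 times matched the labels. The 500 features absent on 91 arrays were left out, and exact zeros (10.8% of values) were taken as missing. Array medians lay between 0 and 0.000495 in the deposited unit.

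Ratios were rewritten as log2, animal over pool, then averaged over the 2 arrays of an animal (both needed) and over the probes of a gene. The common dye effect (SD 0.22, log2) cancels in that mean. With the dye-orientation means subtracted, the 2 turned arrays correlated positively in 57 of 72 animals (median by dose 0.11, 0.10, 0.25 and 0.41). Features with values in fewer than 4 of 6 animals of any group were dropped, leaving 14678 features (8354 named genes, 6324 unnamed probes). Probe annotation gave 12750 probes 1 symbol, 5 several and 9320 none.

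Group differences come from limma 3.58.1 (R 4.3.3), a single model of 12 group means (prior degrees of freedom 2.37), two-sided, with Benjamini-Hochberg adjustment over all features and a threshold of 0.05. The script was tested on simulated data, in which features varied independently of each other and array design had no effect, unlike in real arrays. No paired design applies. Nothing in the labels gives litters or cages, so p-values rest on the spread between these rats. Values of array data carry no depth, and the number of arrays limits precision. Alternatives were dye orientation, zeros, centring, scaling, missing-value filters, array design, weights, single probes, single arrays with a random block (statmod 1.5.0), the pool as reference, the compared animals alone, and each animal left out. The genes, lists, naming rule and tests were chosen with earlier results of these data known. All measured enzymes were named. Of other pathway genes, up to 4 per list past the threshold in a comparison with vehicle were named, plus Hif1a and Nfe2l2. For the changes between times only Nfe2l2 was named. Of the 62 other pathway genes, 3 passed as higher in 24 against 3 h. In 24 against 6 h 1 passed as lower and 1 as higher. For likeness the 3 genes of highest r were named. Tables came from pandas 2.3.3 (Python 3.11.15) and figures from matplotlib 3.10.9.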

Additional observations from a re-analysis of the deposited data

Results flagged for a closer look

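A single rat stood apart from the other 5 of its group in 9 of 108 combinations of enzyme and group, by Dixon's test at the 95% level, where chance flags about 1 in 20. In the 2000 mg/kg groups they were the lowest Pkm value at 6 h (-1.305) and at 24 h (-0.8715), the lowest Eno1 value at 6 h (-0.06453) and the highest Tpi1 value at 3 h (-0.2176). In the 1500 mg/kg groups they were the highest Pgam1 value at 6 h (0.1026, the rat numbered 0621) and the highest Eno1 value at 24 h (0.205). Among vehicle animals they were the highest Pgk1 value at 3 h (0.311), the highest Pkm value at 6 h (0.04276) and the lowest Taldo1 value at 24 h (-1.082).

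The 2000 mg/kg difference changed between the 3 h and the 24 h animals, by 1.074 for Tkt and by 1.018 for Pgk1 on the log2 scale, by the test of the change itself in the limma fit (adjusted p = 0.00895 and 0.00806).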

How the results depend on the processing

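No enzyme that passed a test changed direction under an alternative. At 3 h after 2000 mg/kg the count of 4 became 7 against the pool, where 4588 of 14678 features passed (1355 in the fit reported), and 0 within the fuller array design (4 treated and 2 vehicle animals), where 0 of 15597 did. It was 5, with Tpi1 added, with animal weights (3917 features) and with the compared animals alone (1831). At 6 h the count of 3 became 7 against the pool (5655 features, beside 1354) and 1 with arrays scaled to one spread (899), and was 4, with Pgam1 added, with weights (3466), a random block (1606) and the compared animals alone (1891). At 1500 mg/kg the count of 0 at 3 h, where 190 features passed, became 3 with animal weights (1214 features), 3 with a random block (665), 3 with the compared animals alone (776) and 5 against the pool (2513). At 6 h, where 110 passed, it became 2 with weights (1820), 1 with a random block (567) and 3 against the pool (1968). The counts over all features rose in the settings that gave more enzymes. For 2000 against 1500 mg/kg at 3 h, 2 passed with weights (614 features, beside 0). For the change of the 2000 mg/kg difference, 24 against 6 h gave 2 with weights (1454 features, beside 538) and 3 with a random block (822), and 24 against 3 h gave 4 with weights (1742) and 4 with a random block (750), beside 2. With each rat left out in turn the count ran from 3 to 4 at 3 h and from 1 to 3 at 6 h after 2000 mg/kg, from 0 to 1 at 3 h and from 0 to 2 at 6 h after 1500 mg/kg, and stayed at 0 in the other dose comparisons; this was not run for the changes between times.

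Pgk1 passed at 6 h after 2000 mg/kg in all 25 alternatives. Tkt missed there with arrays scaled (adjusted p = 0.0622) and without the rat numbered 8597 (adjusted p = 0.0597). Of 1618 values of enzymes that did not pass, under alternatives, 89 had the other sign and 43 passed. The pool holds the vehicle rats' own RNA, so a test against it leaves out their spread. The vehicle rats also lay off the pool for some genes. Their means at 3 and 6 h were -0.36 and -0.40 for Taldo1 and -0.28 and -0.24 for Ldha. For Eno1 they were 0.11 and 0.12, and for Aldoa -0.02 and 0.01. Such an offset enters a test against the pool but not a difference from the vehicle rats. What caused the higher counts was not tested. No paired analysis was possible because the groups share no replicate numbers.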
